A study of Homo sapiens with 12 samples.

Results

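NF-κB is the family of transcription factors that switches on inflammatory, survival and stress genes. The 41 genes described here were named by symbol as the NF-κB subunits, their inhibitors, proteins of the signalling chain and known targets. Chemokines and the IL1 family were left out. The list was chosen with earlier results of these data known. All 41 were found among the 29744 gene entries of a count table from 12 RNA-seq libraries. The cells were MB157, an established line of triple-negative breast cancer (TNBC), and MB157R, a derivative of it that grew out during 25 weeks in 1 µM of LY3039478, a γ-secretase inhibitor (GSI) that blocks the release of the NOTCH intracellular domain. There were 4 groups of 3 libraries each: MB157R iN1-ICD, MB157R cells with an inducible NOTCH1 that lacks the extracellular domain; MB157R iEV, MB157R cells with the empty vector; MB157 iSOX2, parental cells with inducible SOX2, a stem cell transcription factor; and MB157 iEV, parental cells with the empty vector. All 4 groups carried a lentiviral construct that doxycycline switches on, and by the labels each was kept in 1 µg/ml doxycycline for 72 h. MB157R is a resistant population derived from a single line, and no source used here says whether its cells were in GSI when RNA was taken.

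In resting cells the NF-κB dimers are held in the cytoplasm by IκB proteins. Ligands such as TNF, engaged on receptors of the TNF, Toll-like and interleukin-1 families, act through TRAF and IRAK adapters and ubiquitin ligases on a kinase complex that marks IκB for destruction, and a slower, non-canonical branch processes the NFKB2 precursor into a partner of RELB. Freed dimers bind κB sites and induce, beside cytokines and adhesion molecules, their own inhibitors, so that genes such as NFKBIA and TNFAIP3 report on the pathway and also restrain it. RNA levels, which are all that was measured here, do not show where the proteins were.

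κB sites were looked for in the letters of the promoters, here the 250 bases before and the 50 after a transcription start in RefSeq on GRCh38.p14. Promoters were found for 33 of the 41 genes, 51 in all. C3, CSF1, CSF3, IER3, LIF, NFKBIE, RELB and RIPK2 had none in the table. The letters GGNNTTTCC, on either strand, stood in 20 of the 51 promoters (39.2%) and in 17 of the 33 genes, against 2198 of 35116 promoters of all genes (6.26%). The κB consensus, a longer and partly overlapping pattern, stood in 37.3% and 5.91% of them. Many of these genes are known for their κB sites, so this is a description of the list. The stretches below belong to genes whose values are given later, lie wholly upstream of the start and overlap no GENCODE v44 exon. Capitals mark the match to GGNNTTTCC, which in BIRC3, NFKBIA, ICAM1 and BCL3 is read on the opposite strand:
VCAM1, chr1:100719640-100719728, + strand, 62 bases before the start: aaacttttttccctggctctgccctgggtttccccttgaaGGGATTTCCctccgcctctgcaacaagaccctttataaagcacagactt
BIRC3, chr11:102317245-102317333, + strand, 199 bases before the start: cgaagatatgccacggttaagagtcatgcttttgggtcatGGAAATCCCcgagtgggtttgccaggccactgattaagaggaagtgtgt
NFKBIA, chr14:35404782-35404870, - strand, 81 bases before the start: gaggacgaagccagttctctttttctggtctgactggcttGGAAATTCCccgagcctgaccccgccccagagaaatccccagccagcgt
TNFAIP2, chr14:103123324-103123412, + strand, 97 bases before the start: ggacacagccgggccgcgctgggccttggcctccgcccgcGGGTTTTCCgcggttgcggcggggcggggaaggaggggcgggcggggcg
ICAM1, chr19:10270894-10270982, + strand, 186 bases before the start: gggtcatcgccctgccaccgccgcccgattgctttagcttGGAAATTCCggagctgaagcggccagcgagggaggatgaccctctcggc
BCL3, chr19:44748563-44748651, + strand, 105 bases before the start: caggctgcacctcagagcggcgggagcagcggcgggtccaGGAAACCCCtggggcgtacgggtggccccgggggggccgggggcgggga

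The libraries held between 32773820 and 49055208 estimated counts. Levels below are CPM, counts divided by library depth, after TMM scaling of all 12 libraries, and means are given ± SD of 3 libraries. The induced genes matched the labels, with SOX2 at 302 ± 23.2 CPM in MB157 iSOX2 and 6.97 ± 0.566 CPM in MB157 iEV, and NOTCH1 at 2346 ± 504 CPM in MB157R iN1-ICD and 95.3 ± 8.65 CPM in MB157R iEV. The epithelial markers EPCAM, KRT8, KRT18, KRT19 and CDH1 summed to between 1599.9 and 6048 CPM in every library, and CD3E and MS4A1, which define T and B cells, had 0 counts throughout. Of the receptors absent from TNBC by definition, ESR1 and PGR stood at or below 5.47 CPM and ERBB2 at 117 to 174 CPM. Each comparison used its own 6 libraries, the genes that the authors' filter had kept and the quasi-likelihood test of edgeR. A gene counted as called where its p, adjusted by Benjamini-Hochberg over all genes tested, was under 0.05. Members that the filter had left out were tested in an added fit over all entries with a mean of at least 5 counts. Folds are ratios of mean levels, and every log2 fold change is the fitted value of its own comparison, whose scaling differs slightly from that of the levels. The comparison of the cell lines shares its MB157 iEV libraries with that of SOX2 and its MB157R iEV libraries with that of N1-ICD, so the 3 are described separately. The study's legends call replicates biological, while the labels only number them and do not name separate cultures. In bulk RNA, fewer expressing cells and less RNA per cell cannot be told apart.

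**Figure D1:**
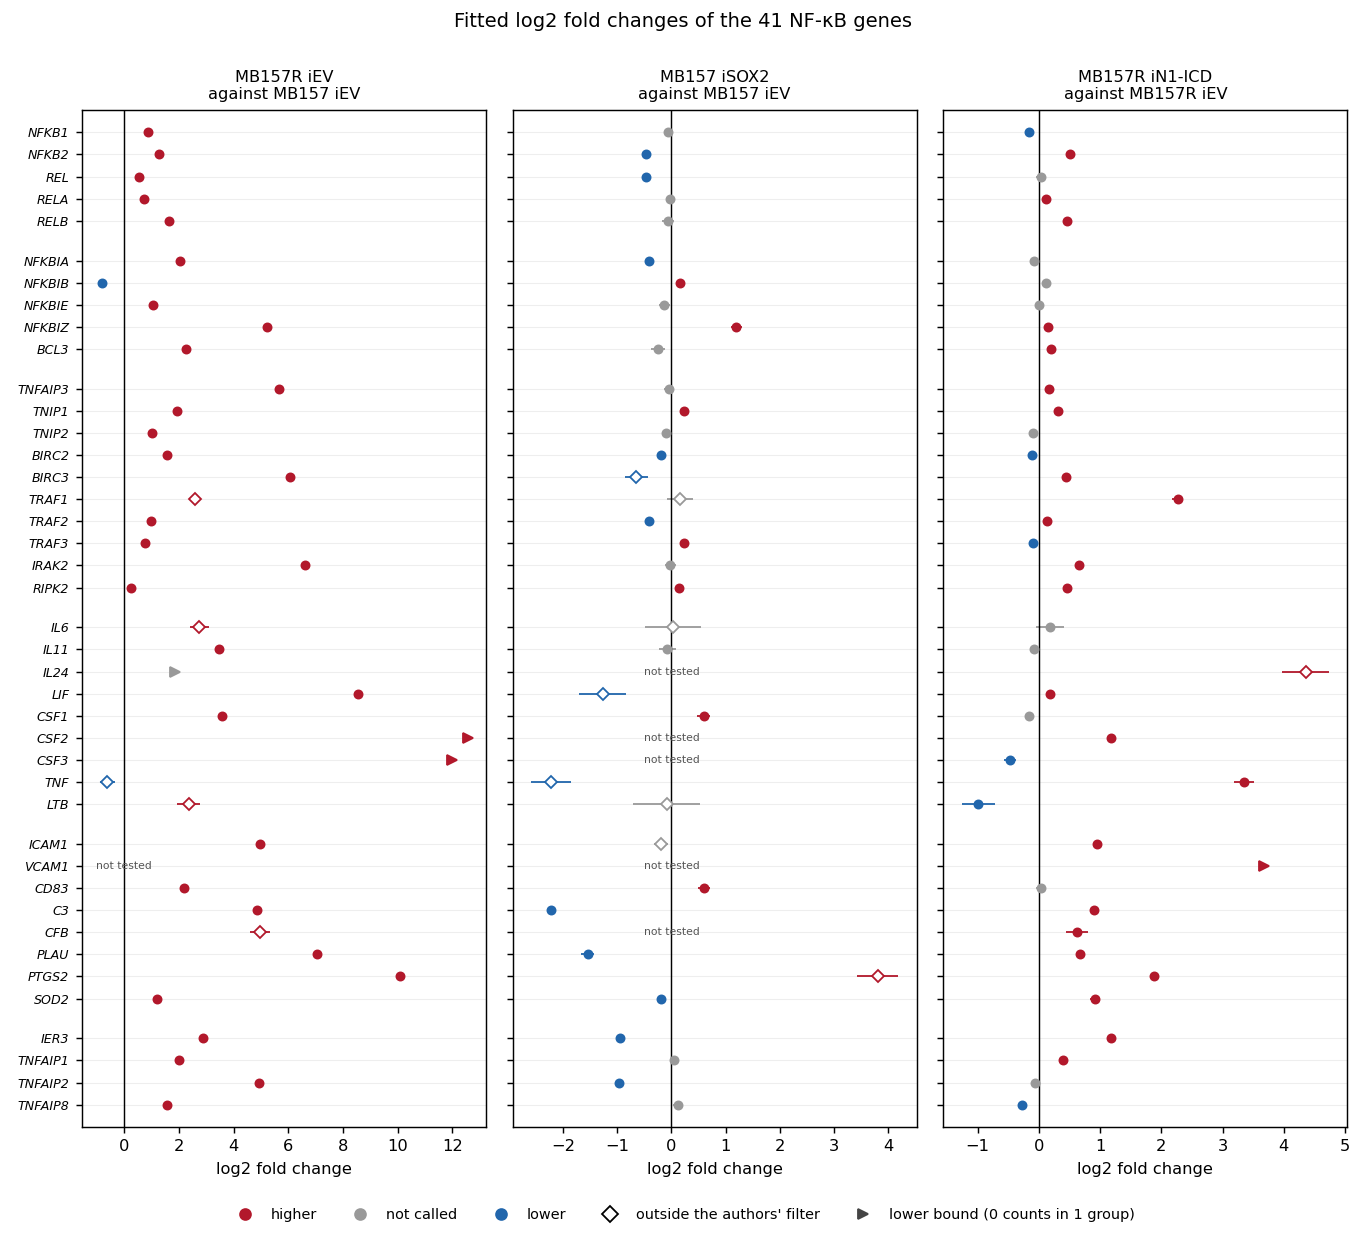
Fitted log2 fold changes (x axes, with standard errors) of the 41 genes (rows, in blocks by role) in the 3 comparisons, each with its own scale. Diamonds are genes outside the authors' filter, and triangles are lower bounds for genes with 0 counts in the second group of a comparison, grey where the gene was not tested. All but 2 of the tested genes lay to the right of 0 in the comparison of the cell lines, while in iSOX2 cells they lay on both sides of it.

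In GSI-resistant MB157R cells nearly every tested gene of this list stood above its level in parental MB157 cells. Differences were modest in the subunits and far larger in several cytokines and enzymes. The upstream kinases and adapters, which are outside the list and described below, did not share this direction. Of the 34 members that the authors' filter had kept, 33 were higher in MB157R iEV and 1, NFKBIB, was lower. Among all 11435 genes tested, 45% were called higher and 45.3% lower. At least 2-fold differences were seen upwards for 27 of the 34 and downwards for 0, against 20.7% and 18.1% of all genes. The median log2 fold change of the 34 was 2.10, and that of all genes was -0.00. A gene that is high only in MB157R could enter this filter through MB157R alone, and 6 of the 34 (BIRC3, CSF2, CSF3, ICAM1, LIF and PTGS2) were not kept when the authors filtered the MB157 libraries without MB157R. These 6 had log2 fold changes of 4.96 or more and count towards both the 2-fold differences and the median above. The other 28 were kept there too, and of these 27 were higher in MB157R and 1 was lower. Neither the 2-fold count nor the median was recomputed for the 28. In the added fit, where 42.9% of 16726 entries were called higher and 43.8% lower, TRAF1, IL6, LTB and CFB were higher and TNF was lower. CFB, with 357 counts in MB157R iEV and 10 in MB157 iEV, could enter that fit through MB157R alone. IL24 and VCAM1 were too low to test.

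All 5 subunit genes were higher in MB157R. RELB, the partner of processed NFKB2 in the non-canonical branch, differed most. RELB stood at 28.9, 28.1 and 29.8 CPM in MB157R iEV, against 8.77, 9.03 and 8.61 CPM in MB157 iEV (3.29-fold, log2 fold change 1.65 ± 0.06 SE, adjusted p = 1.42e-11 in edgeR). NFKB2 stood at 104, 102 and 103 CPM in MB157R iEV, against 40.9, 40.7 and 39.0 CPM in MB157 iEV (2.56-fold). Libraries of the 2 cell lines were far apart for both genes, and the spread within a line was small. NFKB1, whose precursor gives the DNA-binding subunit of the canonical dimer, had 91.5, 86.5 and 89.9 CPM in MB157R iEV, against 45.9, 47.9 and 46.4 CPM in MB157 iEV (1.91-fold). RELA, its transactivating partner, had 149.7, 149.7 and 149 CPM in MB157R iEV, against 90.4, 82.1 and 88.4 CPM in MB157 iEV (1.72-fold). REL, the subunit best known from lymphocytes, had 25.5, 22.5 and 24.5 CPM in MB157R iEV, against 15.7, 15.3 and 16.6 CPM in MB157 iEV (1.52-fold). No library of MB157R iEV overlapped one of MB157 iEV for any of the 5, and the largest adjusted p was 3.93e-06, for REL. The same held for every tested member of the list, so it does not set the subunits apart. Such separation was not counted over all genes, of which 45% were called higher and 45.3% lower.

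**Figure D2:**
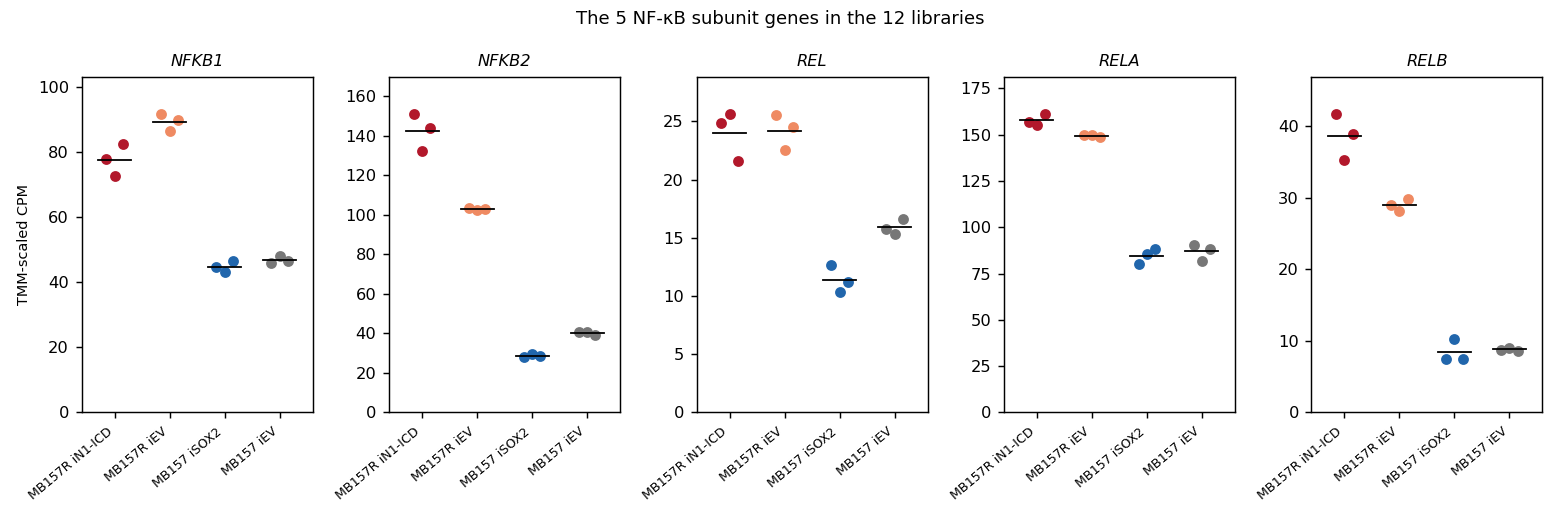
TMM-scaled CPM (linear y axes from 0) of the 5 subunit genes in each of the 12 libraries (points), with a line at each group mean. The MB157R groups lie above the MB157 groups for every subunit, while REL overlaps between MB157R iN1-ICD and MB157R iEV and NFKB1, RELA and RELB overlap between MB157 iSOX2 and MB157 iEV.

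The inhibitors that NF-κB itself induces were higher in MB157R as well, with an exception among the IκB genes. NFKBIA, the classical inhibitor, averaged 223 ± 3.47 CPM in MB157R iEV and 52.4 ± 1.71 CPM in MB157 iEV (4.26-fold). NFKBIZ and BCL3 encode nuclear IκB proteins that act on promoters rather than in the cytoplasm, and NFKBIZ differed far more, 39.4-fold against 5.00-fold for BCL3. NFKBIE was 2.19-fold higher. NFKBIB, which encodes another cytoplasmic inhibitor, went the other way, with 27.9, 30.9 and 31.6 CPM in MB157R iEV, against 49.8, 51.8 and 51.0 CPM in MB157 iEV (log2 fold change -0.83 ± 0.05 SE, adjusted p = 4.71e-09 in edgeR). Its libraries did not overlap either.

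Among the 10 feedback and signalling proteins, 9 passed the filter and all 9 were higher in MB157R, against 45% of all genes. BIRC3, among them, was not kept when the authors filtered the MB157 libraries without MB157R. TNFAIP3, the ubiquitin-editing enzyme that shuts the pathway down, stood at 372, 372 and 370.5 CPM in MB157R iEV, against 7.33, 6.59 and 6.99 CPM in MB157 iEV (53.3-fold). BIRC3, a ubiquitin ligase recruited by TRAF proteins, stood at 138, 135 and 147 CPM in MB157R iEV, against 2.13, 2.20 and 1.64 CPM in MB157 iEV (70.3-fold). IRAK2, a kinase-like adapter below Toll-like and interleukin-1 receptors, stood at 759.5, 756 and 847 CPM in MB157R iEV, against 7.18, 8.16 and 7.67 CPM in MB157 iEV (103-fold). These 3 genes were all below 10 CPM in every parental library and above 100 CPM in every resistant library. Their paralogs and partners moved less. BIRC2, the paralog of BIRC3, was 3.11-fold higher, TNIP1 and TNIP2, which bind TNFAIP3, were 4.05-fold and 2.14-fold higher, and the adapters TRAF2 and TRAF3 were 2.09-fold and 1.78-fold higher. RIPK2, the kinase below the NOD receptors, differed least, at 1.24-fold (log2 fold change 0.24 ± 0.04 SE). TRAF1, an adapter that is itself a target, was 6.06-fold higher in the added fit, at 7.30 ± 0.398 CPM in MB157R iEV and 1.20 ± 0.158 CPM in MB157 iEV.

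The largest differences were in secreted factors. CSF2, which encodes GM-CSF, had 149, 154 and 158 CPM in MB157R iEV, against 0 counts in each MB157 iEV library. CSF3, which encodes G-CSF, had 104, 95.4 and 110.4 CPM in MB157R iEV, against 0 counts in each MB157 iEV library. Measured against a floor of 3 counts over the 3 parental libraries, which covers counting error only, CSF2 was at least 6022-fold and CSF3 at least 4059-fold higher. LIF, a cytokine of the interleukin-6 family, stood at 211, 201 and 179 CPM in MB157R iEV, against 0.390, 0.748 and 0.338 CPM in MB157 iEV (401-fold). Thus the parental cells were at or near 0 for all 3 genes. IL11, of the same family as LIF, was 11.6-fold higher and CSF1, which encodes M-CSF, 12.5-fold higher. IL6 itself stayed low, at 1.15 ± 0.155 CPM in MB157R iEV and 0.168 ± 0.0588 CPM in MB157 iEV, and LTB, a membrane ligand of the TNF family, was at 0.877 ± 0.0893 CPM in MB157R iEV and 0.164 ± 0.102 CPM in MB157 iEV, both called higher in the added fit. The log2 fold change of LTB, 2.36, was 3.00 without MB157 iEV replicate 2. IL24, a cytokine of the interleukin-10 family, had 12 counts over the MB157R iEV libraries and 0 over MB157 iEV, at least 3.66-fold more.

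TNF, the ligand that gives the pathway its best-known stimulus, was not among the genes that rose. It stood at 0.685, 0.577 and 0.606 CPM in MB157R iEV, against 1.02, 1.01 and 0.844 CPM in MB157 iEV, or 80 against 112 counts. The libraries did not overlap, and TNF was called lower in the added fit (log2 fold change -0.61 ± 0.26 SE, adjusted p = 0.0451 in edgeR). The call was lost without any 1 of the libraries except MB157 iEV replicate 3, with adjusted p up to 0.108, with DESeq2 (0.0961) and with no filter (0.0620).

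The enzymes, complement and surface genes are the effector end of the pathway. Each of the 6 that passed the filter was higher in MB157R, against 45% of all genes that passed it. Of these, PTGS2 and ICAM1 were not kept when the authors filtered the MB157 libraries without MB157R. CFB was higher in the added fit, where 42.9% of entries were called higher, and could enter that fit through MB157R alone. VCAM1 was not tested. PTGS2, the inducible cyclooxygenase of prostaglandin synthesis, had 173, 149 and 182 CPM in MB157R iEV, against 0.120, 0.0468 and 0.265 CPM in MB157 iEV (1169-fold). The parental level rested on 17 counts, and the log2 fold change, 10.09 over all libraries, was 10.94 without MB157 iEV replicate 3. PLAU, the urokinase that activates plasminogen, had 1205, 1147 and 1156 CPM in MB157R iEV, against 8.59, 9.14 and 7.40 CPM in MB157 iEV (139.6-fold). Both genes lay above 100 CPM in each resistant library and below 10 CPM in each parental library. ICAM1, an adhesion molecule for leukocyte integrins, was 32.7-fold higher and C3, the central complement component, 30.5-fold, while CFB, the protease of the alternative complement pathway, was at 2.75 ± 0.700 CPM in MB157R iEV and 0.0831 ± 0.0299 CPM in MB157 iEV. CD83, a surface protein of activated antigen-presenting cells, was 4.73-fold higher and SOD2, the mitochondrial superoxide dismutase, 2.38-fold. Among the TNF-induced genes without a shared role, TNFAIP2 was 31.9-fold, the early stress gene IER3 7.70-fold, TNFAIP1 4.21-fold and TNFAIP8, which restrains apoptosis, 3.15-fold higher. VCAM1, an adhesion molecule known mainly from endothelium, had 0 counts over the MB157R iEV libraries and 1 over MB157 iEV. Some of these genes are also expressed by leukocytes or stroma. The 9 leukocyte markers summed to between 4.86 and 6.36 CPM in MB157R iEV and between 40.9 and 44.5 CPM in MB157 iEV, where CD14 made up most of the sum, and CD3E and MS4A1 were at 0 in both groups. The 6 fibroblast markers summed to between 76.1 and 89.5 CPM in MB157R iEV, with DCN at 0, and between 16.2 and 20.6 CPM in MB157 iEV, and their part in these differences was not tested.

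**Figure D3:**
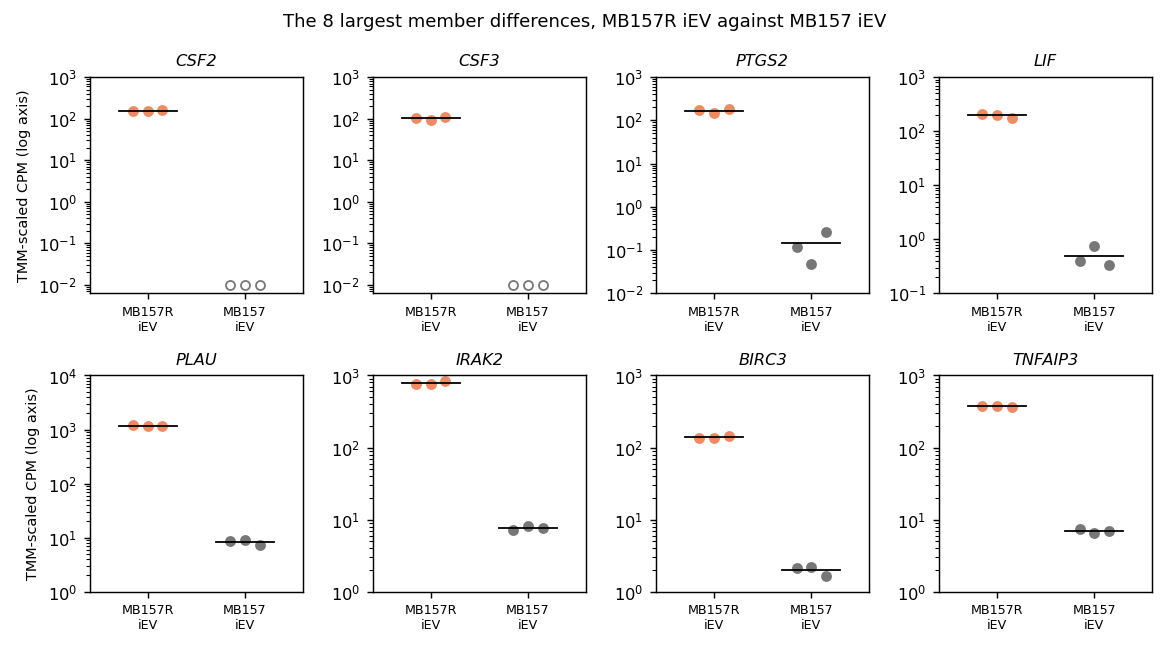
TMM-scaled CPM (log y axes) of the 8 members with the largest called log2 fold changes between MB157R iEV (left) and MB157 iEV (right), 1 point for each library and a line at each mean. Open circles at the bottom of an axis are libraries with 0 counts. In each panel every MB157R iEV library lies above every MB157 iEV library, and CSF2 and CSF3 had 0 counts in the parental cells.

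Of the 22 tested upstream kinases and adapters, 8 were higher in MB157R (36.4%) and 9 lower (40.9%), shares near the 45% and 45.3% of all genes, with a median log2 fold change of -0.06. MAP3K14, the kinase that starts the non-canonical branch, was 5.21-fold higher, at 27.9 ± 0.548 CPM in MB157R iEV and 5.35 ± 0.444 CPM in MB157 iEV. RBCK1, a subunit of the complex that builds linear ubiquitin chains, was at 19.6 ± 0.930 CPM in MB157R iEV and 56.2 ± 2.74 CPM in MB157 iEV (log2 fold change -1.59). Of the 14 tested receptors that feed NF-κB, 9 were higher (64.3%) and 5 lower (35.7%). TLR4, the receptor for bacterial lipopolysaccharide, stood at 69.2 ± 2.58 CPM in MB157R iEV and had 0 counts in MB157 iEV, whereas TLR1 was at 1.96 ± 0.105 CPM in MB157R iEV and 21.0 ± 1.25 CPM in MB157 iEV. Of the 11 tested receptors and binding proteins for the members' own products, 9 were higher (81.8%) and 2 lower (18.2%). CSF2RA, a subunit of the GM-CSF receptor, stood opposite to its ligand, with 0.0536 ± 0.0249 CPM in MB157R iEV and 12.6 ± 0.330 CPM in MB157 iEV. TLR4 could enter the filter through MB157R iEV alone, and CSF2RA through MB157 iEV alone.

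Induction of SOX2 in parental cells moved NF-κB genes in both directions, most of them by less than 2-fold, with larger changes in PTGS2, C3, PLAU, NFKBIZ and TNF. LIF also fell by more than 2-fold, on 27 against 59 counts, a call that was lost when some single libraries were left out. Of the 28 members that passed the filter of this comparison, 7 were higher in iSOX2, 10 lower and 11 did not pass the test. Among all 10904 genes tested, 32.5% were called higher and 33.9% lower, so the shares of the members, 25% and 35.7%, were near those of all genes. The median log2 fold change of the 28 was -0.07. Differences of at least 2-fold were seen for NFKBIZ upwards and for C3 and PLAU downwards, against 3.46% and 2.6% of all genes. In the added fit, where 28.4% of 16397 entries were called higher and 27.9% lower, PTGS2 was higher, BIRC3, LIF and TNF were lower, and TRAF1, IL6, LTB and ICAM1 were not called. The remaining 5, IL24, CSF2, CSF3, VCAM1 and CFB, had at most 10 counts in either group.

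NFKB2 and REL were the subunits that fell on SOX2 induction. NFKB2 stood at 28.1, 29.5 and 28.8 CPM in MB157 iSOX2, against 40.9, 40.7 and 39.0 CPM in MB157 iEV (log2 fold change -0.47 ± 0.05 SE, adjusted p = 1.29e-07 in edgeR). REL stood at 12.7, 10.4 and 11.2 CPM in MB157 iSOX2, against 15.7, 15.3 and 16.6 CPM in MB157 iEV (log2 fold change -0.47 ± 0.08 SE). For both, every iSOX2 library lay below every iEV library. NFKB1 had 44.7, 43.1 and 46.5 CPM in MB157 iSOX2, against 45.9, 47.9 and 46.4 CPM in MB157 iEV. RELA had 80.1, 85.6 and 88.2 CPM in MB157 iSOX2, against 90.4, 82.1 and 88.4 CPM in MB157 iEV. RELB had 7.53, 10.3 and 7.42 CPM in MB157 iSOX2, against 8.77, 9.03 and 8.61 CPM in MB157 iEV. These 3 overlapped between the groups and were not called, with log2 fold changes between -0.06 and -0.03 and adjusted p of 0.253 and above. RELB was called lower without MB157 iSOX2 replicate 2, its highest library (log2 fold change -0.23, adjusted p = 0.0413).

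The inhibitors and adapters also divided. NFKBIZ rose 2.27-fold, with 11.6, 10.4 and 10.2 CPM in MB157 iSOX2, against 5.17, 4.30 and 4.68 CPM in MB157 iEV (log2 fold change 1.19 ± 0.10 SE, adjusted p = 2.18e-08). NFKBIA fell, at 39.1 ± 1.78 CPM in MB157 iSOX2 and 52.4 ± 1.71 CPM in MB157 iEV (log2 fold change -0.42). The groups did not overlap for either gene. NFKBIB rose slightly, by a log2 fold change of 0.15, and NFKBIE and BCL3 were not called, BCL3 except as lower in a fit over all 12 libraries (adjusted p = 0.0228). Of the adapters and ligases, TRAF2 and BIRC2 fell, with log2 fold changes of -0.42 and -0.20, and TNIP1, TRAF3 and RIPK2 rose, with log2 fold changes of 0.14 to 0.23. TNFAIP3, TNIP2 and IRAK2 were not called, with values of -0.04, -0.10 and -0.02. BIRC3 was low in both groups, with 1.10, 1.12 and 1.57 CPM in MB157 iSOX2, against 2.13, 2.20 and 1.64 CPM in MB157 iEV. It was called lower in the added fit (log2 fold change -0.65 ± 0.21 SE, adjusted p = 0.0165), but not without MB157 iEV replicate 2, MB157 iSOX2 replicate 1 or MB157 iSOX2 replicate 2 (adjusted p up to 0.0651).

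The effector genes gave the largest differences, and they did not share a direction. PTGS2 rose 14.2-fold from a very low level, with 1.79, 2.54 and 1.82 CPM in MB157 iSOX2, against 0.120, 0.0468 and 0.265 CPM in MB157 iEV, or 273 against 17 counts (log2 fold change 3.80 ± 0.38 SE, adjusted p = 5.26e-07 in the added fit). Its parental level rested on those 17 counts, and the log2 fold change was 4.63 without MB157 iEV replicate 3. C3 fell to 9.49, 10.0 and 9.09 CPM in MB157 iSOX2, against 46.0, 45.1 and 43.1 CPM in MB157 iEV (4.69-fold lower, log2 fold change -2.22 ± 0.06 SE, adjusted p = 4.07e-15). PLAU fell to 2.96, 2.68 and 2.93 CPM in MB157 iSOX2, against 8.59, 9.14 and 7.40 CPM in MB157 iEV (2.93-fold lower). Neither PTGS2, C3 nor PLAU overlapped between the groups. TNFAIP2 had 7.87, 8.73 and 9.29 CPM in MB157 iSOX2, against 16.8, 17.4 and 16.6 CPM in MB157 iEV. IER3 had 34.0, 35.5 and 38.1 CPM in MB157 iSOX2, against 70.4, 72.8 and 65.6 CPM in MB157 iEV. Both fell by nearly the same amount on the log2 scale, with fold changes of -0.96 and -0.95, and SOD2 fell by 0.19. CD83 rose 1.51-fold, with 8.06, 7.65 and 7.84 CPM in MB157 iSOX2, against 5.20, 4.54 and 5.91 CPM in MB157 iEV. ICAM1, TNFAIP1 and TNFAIP8 were not called, TNFAIP1 except as higher with library totals alone (adjusted p = 0.0455).

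Among the cytokines, CSF1 rose 1.51-fold, at 5.63 ± 0.412 CPM in MB157 iSOX2 and 3.72 ± 0.450 CPM in MB157 iEV. TNF, already low, fell to 0.201 ± 0.0920 CPM in MB157 iSOX2, against 0.957 ± 0.0982 CPM in MB157 iEV, or 27 against 112 counts (log2 fold change -2.22 ± 0.37 SE, adjusted p = 1.08e-04 in the added fit). LIF had 27 counts in MB157 iSOX2 and 59 in MB157 iEV and was called lower (adjusted p = 0.0215), but not without MB157 iEV replicate 2, MB157 iSOX2 replicate 2 or MB157 iSOX2 replicate 3 (adjusted p up to 0.169). IL11, IL6 and LTB overlapped between the groups and were not called. CSF2 and CSF3 had 0 counts in all 6 libraries, which for 3 libraries allows up to 0.0226 CPM in MB157 iSOX2 and 0.0255 CPM in MB157 iEV. VCAM1 had 8 counts in MB157 iSOX2 and 1 in MB157 iEV, a ratio of 7.09 with a 95% interval of 0.951 to 314.8. CFB had 6 counts in MB157 iSOX2 and 10 in MB157 iEV, and IL24 had 1 and 0. Markers of other cell types also moved in these libraries. The 4 endothelial markers summed to between 101 and 109 CPM in MB157 iSOX2, most of it PECAM1, and between 7.31 and 8.18 CPM in MB157 iEV, where CDH5 was at 0. The leukocyte markers summed to between 12.2 and 14.6 CPM in MB157 iSOX2 and between 40.9 and 44.5 CPM in MB157 iEV, with CD3E and MS4A1 at 0 in both, and the part of these markers in the results was not tested.

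**Figure D4:**
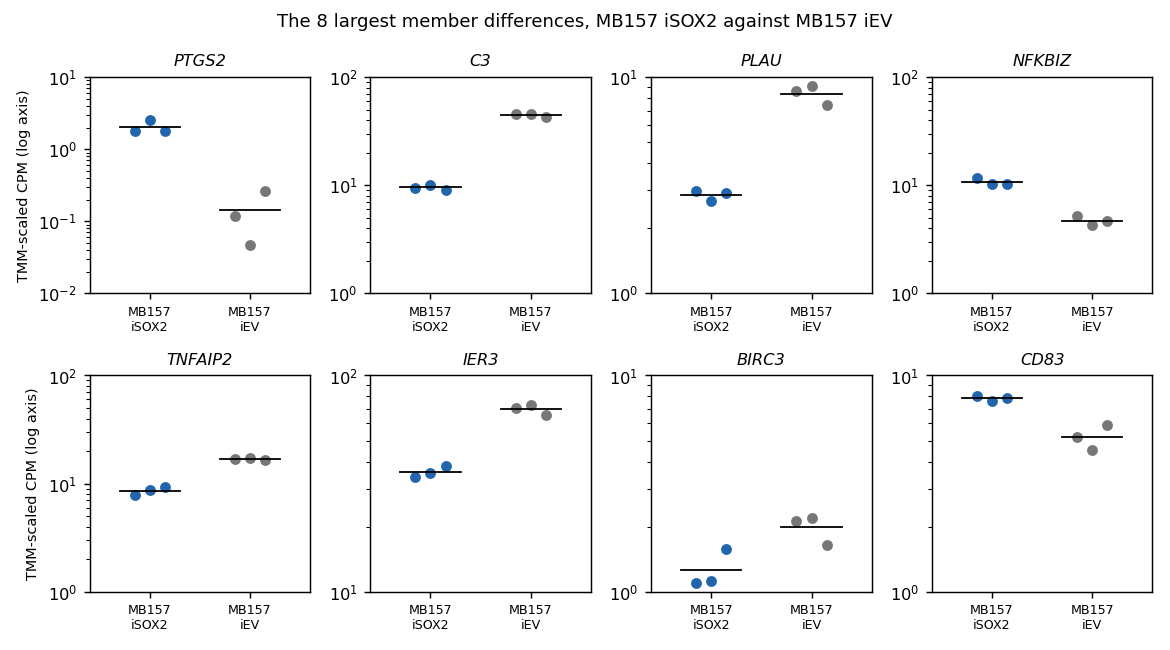
TMM-scaled CPM (log y axes) of the 8 members with the largest called log2 fold changes between MB157 iSOX2 (left) and MB157 iEV (right) and a mean of at least 1 CPM in 1 group, 1 point for each library and a line at each mean. PTGS2, NFKBIZ and CD83 lie higher in iSOX2 and the other 5 lower, with no overlap in any panel.

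Among the other pathway genes, SOX2 induction raised 10 of 21 tested upstream kinases and adapters (47.6%) and lowered 3 (14.3%), against 32.5% and 33.9% of all genes. IRAK4, the kinase that receptors of the Toll-like family recruit first, stood at 34.2 ± 2.96 CPM in MB157 iSOX2 and 17.2 ± 0.116 CPM in MB157 iEV (1.99-fold). IKBKE, a kinase related to the IκB kinases, stood at 12.7 ± 0.894 CPM in MB157 iSOX2 and 19.5 ± 0.828 CPM in MB157 iEV. Of 12 tested receptors that feed NF-κB, 1 rose (8.33%) and 8 fell (66.7%), with a median log2 fold change of -0.30. TLR6 stood at 15.1 ± 0.816 CPM in MB157 iSOX2 and 27.6 ± 1.17 CPM in MB157 iEV, and IL1RAP, the shared chain of interleukin-1 receptors, rose in the added fit, at 4.61 ± 0.328 CPM in MB157 iSOX2 and 2.38 ± 0.225 CPM in MB157 iEV. Of 9 tested receptors and binding proteins for the members' products, 6 rose (66.7%) and 2 fell (22.2%). LIFR, the receptor of LIF, rose 3.61-fold, at 27.1 ± 0.600 CPM in MB157 iSOX2 and 7.50 ± 0.456 CPM in MB157 iEV, while PLAUR, the receptor of urokinase, fell to 3.59 ± 0.318 CPM in MB157 iSOX2, against 4.88 ± 0.440 CPM in MB157 iEV.

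Induction of N1-ICD in resistant cells raised many NF-κB genes further, with large changes in TNF, IL24, TRAF1 and PTGS2. Of the 39 members that passed the filter here, 23 were higher in MB157R iN1-ICD, 6 lower and 10 did not pass. Among all 11210 genes tested, 29.8% were called higher and 29.3% lower, and the shares of the members were 59% and 15.4%. Differences of at least 2-fold were seen upwards for 5 (TRAF1, TNF, CSF2, PTGS2 and IER3) and downwards for 0, against 4.48% and 0.687% of all genes. TNF, at 0.623 ± 0.0556 CPM in MB157R iEV, is high only with N1-ICD and could enter the filter through that group. TRAF1, at 7.30 ± 0.398 CPM in MB157R iEV, could do so too. Both of them, and CFB, IL6 and LTB, were kept here and not by the filter of the control libraries. Of the 34 members that the filter of the control libraries had also kept, 20 were higher with N1-ICD and 5 lower, 3 of them higher by at least 2-fold. The median log2 fold change of the 39 was 0.19, and that of all genes was -0.00. In the added fit, where 27.6% of 15996 entries were called higher and 25.3% lower, IL24 and VCAM1 were higher. Both could enter that fit through MB157R iN1-ICD, with IL24 at 12 and VCAM1 at 0 counts in MB157R iEV. The count of lower members rested on small changes, and it was 3 without MB157R iEV replicate 1, where NFKB1, BIRC2 and TRAF3 were not called.

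NFKB2 and RELB, the non-canonical pair, rose among the subunits. NFKB2 stood at 151, 132 and 144 CPM in MB157R iN1-ICD, against 104, 102 and 103 CPM in MB157R iEV (1.38-fold, log2 fold change 0.51 ± 0.05 SE, adjusted p = 4.66e-06 in edgeR). RELB stood at 41.6, 35.3 and 38.9 CPM in MB157R iN1-ICD, against 28.9, 28.1 and 29.8 CPM in MB157R iEV (1.33-fold). The groups did not overlap for either. RELA had 157, 155 and 161 CPM in MB157R iN1-ICD, against 149.7, 149.7 and 149 CPM in MB157R iEV (log2 fold change 0.12 ± 0.04 SE, adjusted p = 0.0125), a call that was lost with no filter (adjusted p = 0.0891). NFKB1 fell to 77.9, 72.6 and 82.5 CPM in MB157R iN1-ICD, against 91.5, 86.5 and 89.9 CPM in MB157R iEV (log2 fold change -0.16 ± 0.05 SE, adjusted p = 0.0172), with adjusted p of 0.0758 without MB157R iEV replicate 1 and 0.0564 without MB157R iN1-ICD replicate 2. REL overlapped and was not called, with 24.8, 25.6 and 21.6 CPM in MB157R iN1-ICD, against 25.5, 22.5 and 24.5 CPM in MB157R iEV.

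The IκB genes changed little. BCL3 rose by a log2 fold change of 0.20 and NFKBIZ, whose libraries overlapped, by 0.16, and NFKBIA, NFKBIB and NFKBIE were not called. NFKBIA was called lower, with log2 fold changes of -0.09 to -0.10, under 3 alternatives: the filter on a mean of 5 counts, no filter and a fit over all 12 libraries. Of the 10 feedback and signalling proteins, 7 rose, 2 fell and TNIP2 was not called, where 29.8% of all genes rose and 29.3% fell. TRAF1 changed most, with 35.4, 29.5 and 37.7 CPM in MB157R iN1-ICD, against 6.99, 7.16 and 7.75 CPM in MB157R iEV (4.69-fold, log2 fold change 2.27 ± 0.09 SE, adjusted p = 9.64e-09). IRAK2, already abundant, rose 1.53-fold to 1201 ± 30.0 CPM in MB157R iN1-ICD, against 788 ± 51.6 CPM in MB157R iEV. RIPK2, BIRC3 and TNIP1 rose by log2 fold changes of 0.46, 0.44 and 0.31, and TNFAIP3 and TRAF2 by 0.16 and 0.13. The call of TRAF2 was lost with a filter on a mean of 5 counts (adjusted p = 0.0524), with no filter (0.0931), without MB157R iEV replicate 2 (0.0754) and without MB157R iN1-ICD replicate 3 (0.0701). BIRC2 and TRAF3 fell by 0.11 and 0.10, and each call was lost in 5 of the 6 fits that left out 1 library, with adjusted p up to 0.137 for BIRC2 and 0.165 for TRAF3.

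TNF, low in every other group, had its highest level with N1-ICD. It stood at 5.97, 6.68 and 5.98 CPM in MB157R iN1-ICD, against 0.685, 0.577 and 0.606 CPM in MB157R iEV (9.98-fold, log2 fold change 3.35 ± 0.16 SE, adjusted p = 2.71e-08 in edgeR). IL24 stood at 1.94, 2.14 and 1.75 CPM in MB157R iN1-ICD, against 0.0236, 0.100 and 0.151 CPM in MB157R iEV, or 246 against 12 counts (log2 fold change 4.36 ± 0.38 SE, adjusted p = 4.73e-06 in the added fit). CSF2 stood at 348, 347 and 321 CPM in MB157R iN1-ICD, against 149, 154 and 158 CPM in MB157R iEV (2.20-fold). In all 3 genes each iN1-ICD library lay well above each iEV library. Other secreted factors did not follow. CSF3 fell to 78.2, 57.8 and 80.8 CPM in MB157R iN1-ICD, against 104, 95.4 and 110.4 CPM in MB157R iEV (1.43-fold lower, adjusted p = 0.00209), and LTB fell to 0.429 ± 0.0873 CPM in MB157R iN1-ICD, against 0.877 ± 0.0893 CPM in MB157R iEV, or 54 against 112 counts. CSF2 and CSF3, both colony-stimulating factors with 0 counts in parental cells, thus moved in opposite directions. LIF was called higher at 1.11-fold with overlapping libraries (adjusted p = 0.0325), a call lost without MB157R iEV replicate 3, MB157R iN1-ICD replicate 1 or MB157R iN1-ICD replicate 3 (adjusted p up to 0.113) and with a filter on a mean of 5 counts (0.0585). IL6, IL11 and CSF1 were not called, but CSF1 was called lower with no filter (adjusted p = 0.0287), in a fit over all 12 libraries (0.0470) and without MB157R iEV replicate 3 (0.0118).

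Most effector genes rose. Of the 7 tested surface, complement and enzyme genes 6 were higher, against 29.8% of all genes, and CD83 was not called. PTGS2 stood at 595, 659.7 and 561 CPM in MB157R iN1-ICD, against 173, 149 and 182 CPM in MB157R iEV (3.59-fold, log2 fold change 1.89 ± 0.08 SE, adjusted p = 7.69e-09). ICAM1 stood at 218, 217 and 216 CPM in MB157R iN1-ICD, against 111, 109 and 127 CPM in MB157R iEV (1.87-fold). SOD2 stood at 274, 271 and 254 CPM in MB157R iN1-ICD, against 132, 134 and 169 CPM in MB157R iEV (1.84-fold). None of the 3 overlapped between the groups, and replicate 3 of MB157R iEV was the highest control library for each. C3, PLAU and CFB rose 1.81-fold, 1.54-fold and 1.51-fold. VCAM1 was at 0.290, 0.303 and 0.307 CPM in MB157R iN1-ICD, or 38 counts, and had 0 counts in MB157R iEV. It was at least 12.8-fold higher against a floor of 3 counts (adjusted p = 4.61e-04 in the added fit). VCAM1 could enter that fit through MB157R iN1-ICD alone. Its level was low in all groups, and the endothelial markers summed to between 26.2 and 30.6 CPM in MB157R iN1-ICD, most of it KDR, and between 4.41 and 4.79 CPM in MB157R iEV. The leukocyte markers, with CD3E and MS4A1 at 0 in both groups, summed to between 16.7 and 17.9 CPM in MB157R iN1-ICD and between 4.86 and 6.36 CPM in MB157R iEV. The fibroblast markers, with DCN at 0 in both groups, summed to between 158 and 166 CPM in MB157R iN1-ICD and between 76.1 and 89.5 CPM in MB157R iEV, and the part of these markers in the results was not tested. IER3 stood at 1244, 1077 and 1202 CPM in MB157R iN1-ICD, against 528, 532 and 549 CPM in MB157R iEV (2.19-fold). IER3 belongs to the NOTCH signature of the study, which was partly chosen on these libraries, so its rise is not independent evidence. TNFAIP1 rose 1.28-fold, TNFAIP8 fell by 0.27 on the log2 scale and TNFAIP2 was not called, except as lower without MB157R iEV replicate 3 (adjusted p = 0.0252).

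**Figure D5:**
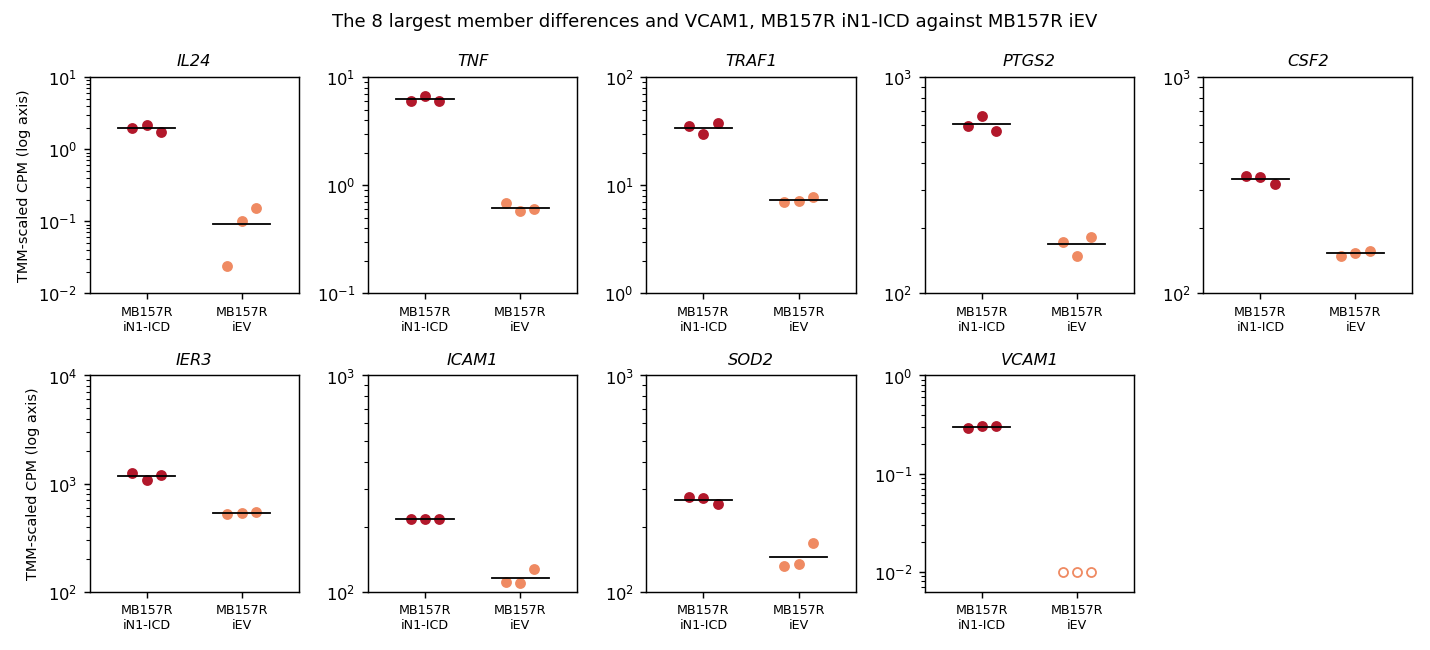
TMM-scaled CPM (log y axes) of the 8 members with the largest called log2 fold changes between MB157R iN1-ICD (left) and MB157R iEV (right) and a mean of at least 1 CPM in 1 group, and of VCAM1, 1 point for each library and a line at each mean. Open circles are libraries with 0 counts. All 9 genes lie higher in each iN1-ICD library than in any iEV library.

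Of 22 tested upstream kinases and adapters, 7 rose with N1-ICD (31.8%), 4 fell (18.2%) and 11 did not pass, so the share that rose was near the 29.8% of all genes, of which 29.3% fell. The largest changes were those of RBCK1, 1.34-fold higher at 26.3 ± 0.706 CPM in MB157R iN1-ICD and 19.6 ± 0.930 CPM in MB157R iEV, and IKBKE, lower at 29.0 ± 2.85 CPM in MB157R iN1-ICD and 39.0 ± 1.31 CPM in MB157R iEV. Of 16 tested receptors that feed NF-κB, 9 rose (56.2%) and 4 fell (25%), with a median log2 fold change of 0.38. TLR1, a partner of TLR2, rose 7.33-fold, at 14.4 ± 0.782 CPM in MB157R iN1-ICD and 1.96 ± 0.105 CPM in MB157R iEV, and TLR4 fell to 40.4 ± 1.84 CPM in MB157R iN1-ICD, against 69.2 ± 2.58 CPM in MB157R iEV. Of 13 tested receptors and binding proteins for the members' products, 5 rose (38.5%) and 6 fell (46.2%). IL20RB, a chain of receptors that bind IL24, rose 7.73-fold, at 8.72 ± 0.348 CPM in MB157R iN1-ICD and 1.13 ± 0.343 CPM in MB157R iEV. Both IL20RB and TLR1, low in MB157R iEV, could enter the filter through MB157R iN1-ICD.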

How the data were processed

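RNA-seq was done on 12 libraries, 3 for each of 4 groups. By the study's methods, reads were mapped to hg38 and quantified per gene with STAR and Salmon, with the strand of the library taken into account. The annotation is not given in the sources used here. The deposited table holds the authors' expected counts, estimated per gene and not normalized, of which 88% were whole numbers, and these were rounded here. The authors also deposited, for each comparison, log2 CPM values from voom after TMM scaling, without genes averaging under 2 TPM or under 5 counts and without pseudogenes and predicted or uncharacterized genes. These tables gave the genes to test.

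Each comparison was fitted on its own 6 libraries with edgeR 4.0.16 in R 4.3.3 (quasi-likelihood test, TMM factors, adjustment over all genes tested, threshold 0.05). Ratios against 0 counts used a floor of 3 counts over a group's libraries. Depth was 32773820 to 49055208 counts a library, and intervals and floors cover counting error only. The code was tested on simulated data. Other settings tried were scaling by RLE or by totals, a minimum mean of 5 counts or none at all, voom (limma 3.58.1), DESeq2 1.42.0, a joint fit of the 12 libraries, the replicate number as a block, and the removal of each library. The added fit was chosen after seeing the data. Values of every library are given for the 5 subunits and for the 8 called members with the largest log2 fold change in each comparison and at least 1 CPM in 1 group, and some others were chosen after their values were seen. From each list of other pathway genes the called gene with the largest change in each direction is named, apart from results that are not reported here. The members, lists and tests were chosen with earlier results of these data known. Promoters are from RefSeq on GRCh38.p14.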

Additional observations from a re-analysis of the deposited data

How the results depend on the processing

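The counts of called members kept within 1.5 times of their values under every alternative, except those of the lower members. In MB157R iEV against MB157 iEV, 2 members were lower with a filter on a mean of 5 counts, where TNF joined NFKBIB. In MB157R iN1-ICD against MB157R iEV, 3 to 6 were lower when each library was left out in turn. Same-numbered replicates did not vary together (correlations of -0.185 to 0.0741), so the numbers were not taken as pairs. With a replicate block, 5 members were lower in MB157R iN1-ICD, since TRAF3 was not called (adjusted p = 0.0686), and TNF was not called in MB157R iEV against MB157 iEV (adjusted p = 0.109). The block changed no other call of a member.

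Over 116 member fold changes and 1609 values under alternatives, 1531 kept direction and call, 37 lost the call, 10 gained it and 31 changed sign, 0 of the last with an adjusted p under 0.05. In MB157 iSOX2 against MB157 iEV, library totals alone gave log2 fold changes of 0.0021 for NFKB1, 0.027 for RELA, 0.00069 for RELB, 0.015 for TNFAIP3 and 0.039 for IRAK2. In MB157R iN1-ICD against MB157R iEV, NFKBIE was at -0.016 with a filter on a mean of 5 counts, -0.023 with no filter and -0.0063 in the fit over 12 libraries, and with no filter REL was at -0.0013 and CD83 at -0.0025. Leaving out 1 library gave, with iSOX2, -0.074 to 0.010 for RELA, -0.23 to 0.031 for RELB, -0.11 to 0.066 for IRAK2, -0.20 to 0.14 for IL11, -0.18 to 0.35 for IL6, -0.69 to 0.54 for LTB and -0.0072 to 0.33 for TRAF1. With iN1-ICD it gave -0.030 to 0.059 for CD83, -0.025 to 0.10 for REL, -0.031 to 0.041 for NFKBIE and -0.013 to 0.32 for IL6. The cause was not tested. Of 328 levels under other scalings, 36 moved by over 1 SD, by at most 5.11%. Low counts limit IL6, IL24, LTB, VCAM1, CFB, PTGS2 and LIF in MB157 cells and, outside MB157R iN1-ICD, TNF.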
